A study of Mus musculus with 6 samples.

Results

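The genes described here are the 7 that carry bile acids across the ileal enterocyte and report on them to the liver, namely Slc10a2, Fabp6, Slc51a, Slc51b, Nr1h4, Nr0b2 and Fgf15. They were chosen by symbol from the 54446 genes of the deposited count table, and all 7 were present and passed the filter on low counts, which left 15068 genes. Bile acids are made in the liver, released into the gut and taken back mainly in the ileum, the last part of the small intestine, so these genes are also used as marks of ileal tissue. In the enterocyte the acids activate the nuclear receptor FXR, whose targets include the exporter genes and Fgf15, a hormone gene whose product lowers bile acid synthesis in the liver. Prkci, the gene removed in the study, encodes an atypical protein kinase C that acts in apical polarity.

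Epithelial RNA was sequenced from 3 knockout mice (Prkci flox/flox with Villin-CRE) and from 3 control mice (Prkci flox/flox, without Cre). Both groups carried the floxed alleles, were co-housed and were 3 to 4 months old, and Cre was present in the knockouts alone. The villin promoter drives Cre in intestinal epithelium, so any other cell in a sample keeps Prkci. The titles name jejunum, whereas the series text describes pieces 10 cm long of jejunum and ileum, so the position of each piece along the gut is not given, and whether it differed between libraries bears on every gene below.

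Total counts were 18972906, 25258885 and 26687856 in knockouts 1 to 3, and 22453798, 22511957 and 23008047 in controls 1 to 3. The numbers are the replicate numbers of the labels. Values are given as CPM, the count of a gene per 1000000 counts of its library, scaled for library composition. Prkci had 21.5, 14.6 and 21.4 CPM in knockouts 1 to 3, against 44.6, 46.9 and 44.0 CPM in controls 1 to 3. It was lower in every knockout, with an edgeR log2 fold change of −1.24 (SE 0.17). Even so, Prkci did not pass by edgeR (adjusted p = 0.0719) or limma-voom (adjusted p = 0.0807), and passed by DESeq2 (adjusted p = 1.1e-07). A gene below that edgeR did not call is therefore not shown to be unchanged. In 3 of the 6 libraries the sex transcripts Xist and Ddx3y did not match the sex that the submitters list. By these transcripts knockout replicates 2 and 3 and control replicate 3 were female, and knockout replicate 1 and control replicates 1 and 2 were male. Knockout replicate 1 also stood apart from the other knockouts. Its counts of single genes, set against those expected from the library totals, differed from theirs by a chi-square per gene of 157 and 105. The value was 49.3 between knockout replicates 2 and 3 and at most 48.1 between controls. Counts of called genes are given with and without it for the bile acid genes and for each pathway list.

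Of the members, 6 had a promoter sequence in RefSeq (build GRCm38.p6), taken here as 250 bases before to 50 bases after the gene start. The sequence of Fabp6 is shown because it holds the motif of FXR, which is known to act on that gene. The FXR motif is an inverted repeat, AGGTCANTGACCT, and was searched with up to 2 mismatches. It reads the same on either strand, and capitals mark the matches. The Fabp6 promoter lies on the minus strand at chr11:43601513-43601812.
Fabp6: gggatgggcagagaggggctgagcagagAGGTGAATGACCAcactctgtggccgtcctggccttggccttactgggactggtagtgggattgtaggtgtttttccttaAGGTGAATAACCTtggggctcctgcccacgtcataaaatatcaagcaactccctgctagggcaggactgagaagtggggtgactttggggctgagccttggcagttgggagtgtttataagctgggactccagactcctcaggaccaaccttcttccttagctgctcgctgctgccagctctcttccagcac
Fabp6 held 2 FXR matches, each with 2 mismatches, which begin 222 and 142 bases before the gene start. Of 32851 promoters searched, 1.14% held a match. The other 5 promoters (Slc10a2, Slc51a, Slc51b, Nr1h4 and Nr0b2) held no match, which says only that these letters are not in this window. The window of Nr1h4, at chr10:89506609-89506908, lies inside the gene positions given below and not at their start.

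Slc10a2, Fabp6, Slc51a, Slc51b and Nr1h4 lay above every control in knockout replicates 2 and 3, and below at least 1 control in knockout replicate 1. Nr0b2 and Fgf15 lay above every control in knockout replicate 3 alone. None of the 7 passed the edgeR test between the genotypes, in a comparison in which 0.0597% of all genes tested did (0.0531% higher and 0.00664% lower, that is 8 and 1 genes, or 11 higher and 5 lower without composition scaling). None passed by DESeq2, which called 5.23% of all genes (3.35% higher and 1.87% lower), or by limma-voom, which called 0.0332% (0.0265% higher and 0.00664% lower). None had an unadjusted p under 0.05 in the filtered edgeR fit of genotype alone, beside 9.32% of all genes that were higher and 7.09% lower. All 7 had a positive log2 fold change, with a median of 0.68, beside 50.7% positive and a median of 0.01 over all genes. The libraries of the genotypes overlapped for each of the 7.

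Uptake from the gut lumen runs through Slc10a2 (ENSMUSG00000023073.2, chromosome 8, 5083219 to 5105351, mm10), the sodium-dependent bile acid transporter of the ileal brush border. It stood at 31.5, 111 and 121 CPM in knockouts 1 to 3, against 45.9, 41.9 and 97.2 CPM in controls 1 to 3. The lowest library was thus a knockout, and control replicate 3 lay close to the upper pair of knockouts. The means were 87.8 ± 49.0 CPM in knockouts and 61.7 ± 30.9 CPM in controls (SD, n = 3 each), with a log2 fold change of 0.51 (SE 0.53, edgeR adjusted p = 0.650).

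Inside the cell the acids are bound by the product of Fabp6 (ENSMUSG00000020405.4, chromosome 11, 43596049 to 43601540), the ileal bile acid binding protein and the gene with the FXR matches shown above. Fabp6 had 84.2, 312 and 818 CPM in knockouts 1 to 3, against 52.7, 232 and 188 CPM in controls 1 to 3. Knockout replicate 3 was far above all others, and knockout replicate 1 lay below 2 of the 3 controls. The log2 fold change of 1.36 (SE 0.82) did not pass (edgeR adjusted p = 0.439), and it was 0.36 without knockout replicate 3. Within each genotype Fabp6 was among the most variable genes. The highest control had 4.40 times the lowest, a wider range than in 98.7% of genes tested, and the highest knockout 9.71 times the lowest, wider than in 98.5%.

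Export to the portal blood needs both chains of the basolateral transporter, encoded by Slc51a (ENSMUSG00000035699.8, chromosome 16, 32474504 to 32487879) and Slc51b (ENSMUSG00000053862.6, chromosome 9, 65412714 to 65422955). Slc51a had 158, 404 and 510 CPM in knockouts 1 to 3, against 237, 256 and 287 CPM in controls 1 to 3. Its controls lay within 1.21 times of each other, and the knockouts fell on both sides of them. The log2 fold change was 0.46 (SE 0.38, edgeR adjusted p = 0.569). Slc51b had 84.6, 192 and 176 CPM in knockouts 1 to 3, against 96.8, 81.1 and 105 CPM in controls 1 to 3. Here too knockout replicates 2 and 3 lay above every control and knockout replicate 1 among them. With a log2 fold change of 0.68 (SE 0.29) and an edgeR adjusted p of 0.311, Slc51b had the lowest p of the 7 members (0.0528 before adjustment).

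Exons of Slc51a overlap those of Pcyt1a on the opposite strand, at most between 32474504 and 32475070 of chromosome 16. No source used here gives the strand setting of the counting, so reads within that stretch cannot be told apart. Most of each gene lies outside it. Pcyt1a, a gene of phosphatidylcholine synthesis, had 403, 288 and 242 CPM in knockouts 1 to 3, against 372, 426 and 322 CPM in controls 1 to 3. Its order over the knockouts was the reverse of that of Slc51a. Slc51b and Fgf15 overlap genes with 189 and with 10 and 1 counts over all libraries.

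The receptor FXR is encoded by Nr1h4 (ENSMUSG00000047638.15, chromosome 10, 89454234 to 89533585). Nr1h4 had 33.7, 55.6 and 67.8 CPM in knockouts 1 to 3, against 38.1, 31.0 and 47.0 CPM in controls 1 to 3. It had the smallest spread between knockouts of the 7, with the highest library at 2.01 times the lowest. The log2 fold change was 0.44 (SE 0.27, edgeR adjusted p = 0.447).

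The hormone gene Fgf15 (ENSMUSG00000031073.6, chromosome 7, 144896531 to 144900953) and Nr0b2 (ENSMUSG00000037583.2, chromosome 4, 133553376 to 133556536), which encodes the corepressor SHP, are both induced by FXR. Fgf15 had 12.5, 8.50 and 42.5 CPM in knockouts 1 to 3, against 4.18, 28.0 and 7.53 CPM in controls 1 to 3. One library of each genotype stood high, knockout replicate 3 and control replicate 2. The controls differed by 6.71 times, a wider range than in 99.4% of genes. The log2 fold change was 0.68 (SE 0.82, edgeR adjusted p = 0.698), and it was −0.32 without knockout replicate 3. Nr0b2 was near the detection limit, with 4, 7 and 95 counts in knockouts 1 to 3, against 10, 12 and 15 counts in controls 1 to 3. Its log2 fold change of 1.47 (SE 1.03, edgeR adjusted p = 0.496) rests on knockout replicate 3 alone, and without that library it was −0.999 (SE 0.46, edgeR adjusted p = 0.481).

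**Figure D1:**
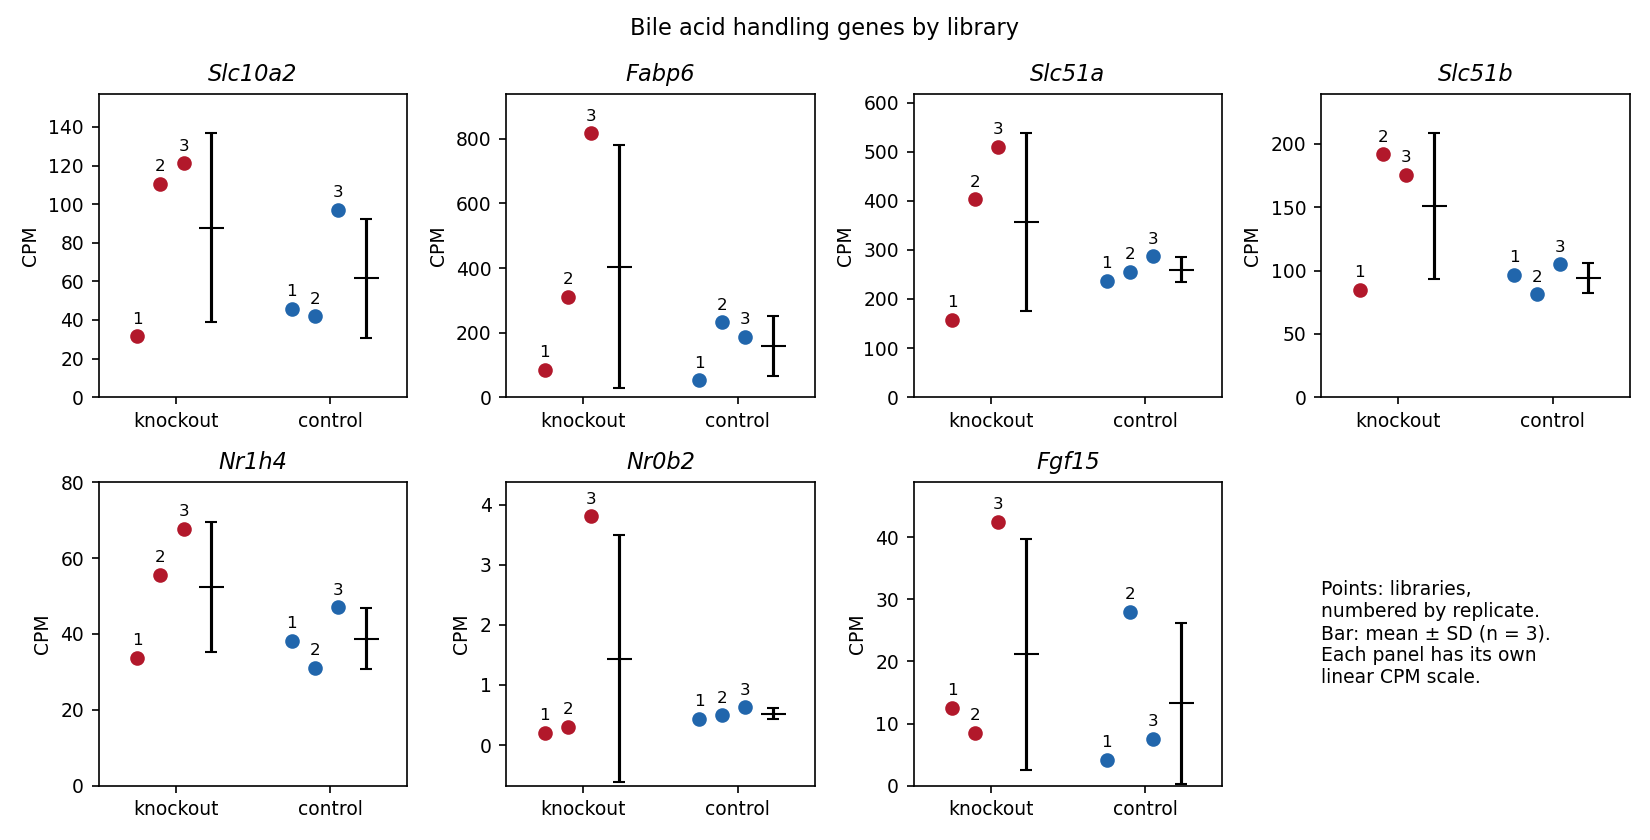
CPM of the 7 bile acid handling genes in each library (points, numbered by replicate), with the mean ± SD of 3 libraries beside them and a separate linear scale for each gene. Knockout replicate 3 was highest for 6 genes and knockout replicate 2 for Slc51b, while knockout replicate 1 was lowest for 3.

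Knockout replicate 3 was the highest of the 6 libraries for 6 of the 7 members, a place it held for 12.4% of all genes tested. Knockout replicate 1 was the lowest for 3 members, and for 20.6% of all genes. The members did not all share an order, however. Among the controls Fabp6 and Fgf15 were highest in replicate 2, whereas Slc10a2, Slc51a, Slc51b, Nr1h4 and Nr0b2 were highest in replicate 3.

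Levels were compared between members as CPM per kilobase of exon. Fabp6 was the most abundant transcript, at 845 ± 784 CPM per kilobase in knockouts and 329 ± 195 in controls (SD, n = 3 each). Slc51b followed with 213 ± 81.5 in knockouts and 133 ± 17.0 in controls, and Slc51a with 112 ± 56.5 and 81.3 ± 8.02 CPM per kilobase in knockouts and controls. Nr1h4 stood at 22.7 ± 7.48 in knockouts and 16.8 ± 3.47 in controls, and Slc10a2 at 21.1 ± 11.8 and 14.9 ± 7.43, also knockouts and then controls. Fgf15 (6.93 ± 6.08 in knockouts and 4.33 ± 4.22 in controls) and Nr0b2 (1.27 ± 1.81 in knockouts and 0.462 ± 0.0848 in controls) were lowest. This order held in all 6 libraries between Slc51b and Slc51a, Slc51a and Nr1h4, Slc10a2 and Fgf15, and Fgf15 and Nr0b2. Fabp6 exceeded Slc51b in 5 of 6 libraries, and Nr1h4 and Slc10a2, which changed places in 2 of the 6, did not differ beyond their spread.

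The libraries that were female by Xist held the 3 highest values of Slc10a2, Slc51a, Slc51b and Nr1h4. These 4 of the 7 members compare with 4.75% of all genes tested. Sex by transcript and genotype overlapped in part (2 of 3 knockouts and 1 of 3 controls were female), so the values were also set side by side within each sex. Among the females, with 2 knockouts and 1 control, the knockout to control ratio ran from 1.19 for Slc10a2 to 3.39 for Fgf15 and was above 1 for all 7 members. Among the males, with 1 knockout and 2 controls, it ran from 0.431 for Nr0b2 to 0.975 for Nr1h4 and was below 1 for all 7. The same pair of directions was found for 24.6% of all genes tested. The male knockout is replicate 1, so its sex cannot be told apart from whatever else sets that library off. With sex by transcript as a covariate, the log2 fold change was −0.11 for Slc10a2 (SE 0.19), 0.42 for Fabp6 (SE 0.90), 0.01 for Slc51a (SE 0.32) and 0.37 for Slc51b (SE 0.22). It was 0.18 for Nr1h4 (SE 0.17), 0.61 for Nr0b2 (SE 1.17) and 0.69 for Fgf15 (SE 1.07), the last close to its value without the covariate. None of the 7 passed in that fit, with an edgeR adjusted p of 0.527 for Slc51b.

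Without knockout replicate 1, 3 of the 7 members were higher in knockouts by edgeR, where 10.0% of all genes were called higher and 7.44% lower. The 3 were both exporter genes and the receptor gene. Slc51b had a log2 fold change of 0.96 (SE 0.12, edgeR adjusted p = 0.00350), Slc51a of 0.81 (SE 0.14, edgeR adjusted p = 0.0102) and Nr1h4 of 0.67 (SE 0.18, edgeR adjusted p = 0.0408). Slc10a2 had 0.91 (SE 0.34, edgeR adjusted p = 0.106), Fabp6 1.84 (SE 0.60, edgeR adjusted p = 0.0780), Nr0b2 1.97 (SE 0.84, edgeR adjusted p = 0.149) and Fgf15 0.94 (SE 0.85, edgeR adjusted p = 0.471). Both knockouts of that fit were Xist-high, as was 1 of the 3 controls, so genotype and sex cannot be told apart in these 3 calls.

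**Figure D2:**
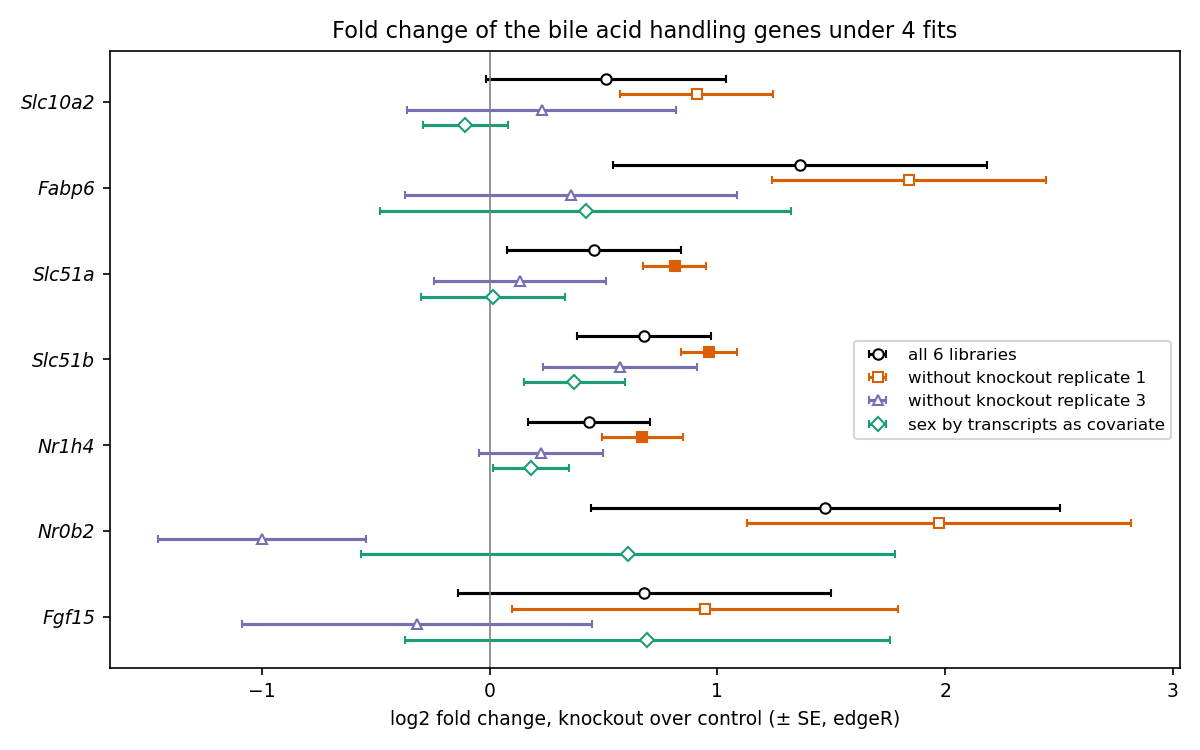
Log2 fold change, knockout over control, ± SE by edgeR for the 7 genes under 4 fits, with filled symbols where the adjusted p was under 0.05. The filled symbols are Slc51a, Slc51b and Nr1h4 without knockout replicate 1. Nr0b2 and Fgf15 turn negative without knockout replicate 3, and Slc10a2 (−0.11) with sex by transcripts as a covariate.

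The position of the sampled piece was examined with genes known to be graded along the small intestine. In bulk RNA, fewer cells of a type and less RNA per cell cannot be told apart. The level of a list in a library was taken as the average log2 CPM of its genes after subtracting the control average. The bile acid genes had levels of −0.46, 0.51 and 1.61 in knockouts 1 to 3, against −0.44, 0.19 and 0.25 in controls 1 to 3. Distal enterocyte genes other than these (34 tested) had levels of −0.52, 0.17 and 0.12 in knockouts 1 to 3, against 0.08, −0.06 and −0.02 in controls 1 to 3. Proximal enterocyte genes (40 tested) had levels of −0.25, −0.01 and 0.07 in knockouts 1 to 3, against 0.17, −0.14 and −0.03 in controls 1 to 3. In knockout replicate 3 the bile acid genes thus stood 1.61 above the controls while the other distal and the proximal genes stood within the control range or close to it, and in knockout replicate 1 all 3 lists were below the controls. By edgeR none of the distal or proximal genes was called, and the median log2 fold change was −0.00 for distal and 0.00 for proximal genes. At an unadjusted edgeR p under 0.05 were 2 higher and 2 lower distal genes, and 2 higher and 6 lower proximal genes. Over all genes the share at that level was 9.32% higher and 7.09% lower. Without knockout replicate 1, edgeR called 6 distal genes higher and 4 lower (median 0.12) and 3 proximal genes higher and 4 lower (median 0.03), beside 10.0% of all genes higher and 7.44% lower. The difference in list level, knockout minus control, was 0.55 for the bile acid genes, and it was 1.06 without knockout replicate 1 and 0.03 without knockout replicate 3. For distal genes it was −0.08, and 0.15 without knockout replicate 1. By DESeq2, 1 distal gene was higher and 2 lower, and 1 proximal gene was higher and 4 lower. Over all genes DESeq2 called 3.35% higher and 1.87% lower. Without composition scaling, which shifted the median of all genes to −0.10, the medians were −0.13 for distal and −0.10 for proximal genes.

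**Figure D3:**
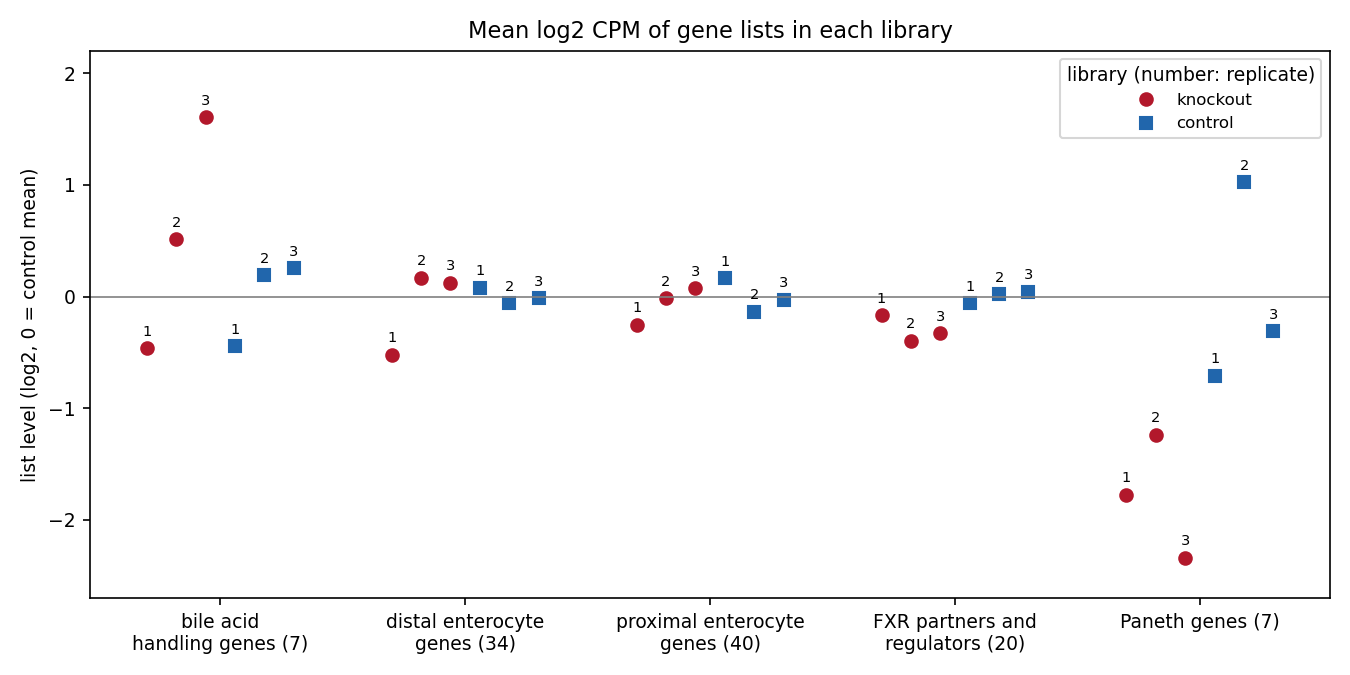
List level (mean log2 CPM minus the control mean) in each library for the bile acid genes, other distal and proximal enterocyte genes, FXR partners and regulators, and Paneth genes, with the number of genes tested and points numbered by replicate. The bile acid genes span −0.46 to 1.61, whereas the levels of distal and proximal enterocyte genes stay between −0.52 and 0.17. These levels average 7, 34 and 40 genes, and single distal and proximal genes moved in both directions.

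Single genes of the distal list moved in different ways. Mep1a, which encodes the alpha chain of the brush border protease meprin, had 122, 178 and 244 CPM in knockouts 1 to 3, against 370, 441 and 389 CPM in controls 1 to 3, and was lower in every knockout (log2 fold change −1.14, SE 0.24, edgeR adjusted p = 0.120). Anpep, the aminopeptidase N gene and the most abundant of the list, had 5857, 19595 and 12339 CPM in knockouts 1 to 3, against 8428, 8441 and 8974 CPM in controls 1 to 3. Its knockouts lay on both sides of the controls, as those of Slc51a did. Enpep, the aminopeptidase A gene, was likewise spread (965, 2954 and 2146 CPM in knockouts, against 1685, 1322 and 1610 CPM in controls, in replicate order). The transcription factor gene Maf (419, 407 and 437 CPM in knockouts, against 574, 646 and 606 CPM in controls) and the lectin-like gene Clec2h were lower in every knockout, whereas Krt20, a keratin of differentiated enterocytes, and the myosin gene Myh14 were higher in every knockout. Over all genes tested, 11.7% were lower and 10.0% higher in every knockout.

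Genes of the proximal list also differed from each other. Fabp1, the fatty acid binding protein gene of the proximal intestine and a paralogue of Fabp6, had 1247, 1042 and 911 CPM in knockouts 1 to 3, against 1589, 1348 and 1649 CPM in controls 1 to 3, and was lower in every knockout (log2 fold change −0.52, SE 0.17, edgeR adjusted p = 0.213). Aldh1a1, a retinal dehydrogenase gene, was lower in every knockout (edgeR log2 fold change −1.10, SE 0.23, adjusted p = 0.120), as was Ace, and Xdh, the xanthine dehydrogenase gene, was higher in every knockout (edgeR log2 fold change 0.62, SE 0.15, adjusted p = 0.146). The most abundant members, Apoa4 and Mttp of chylomicron assembly and the glucose transporter gene Slc5a1, overlapped between genotypes. Per 1000 counts of Fabp1, Fabp6 had 67.5, 299 and 897 counts in knockouts 1 to 3, against 33.2, 172 and 114 in controls 1 to 3. Per 1000 counts of Fabp2, the paralogue expressed along the whole small intestine, Fabp6 had 30.6, 47.1 and 172 counts in knockouts 1 to 3, against 13.2, 60.6 and 44.9 in controls 1 to 3. On the Fabp2 scale knockout replicate 2 thus fell among the controls. Slc10a2, Slc51a and Fgf15 also overlapped between genotypes on that scale, with Slc51a at 57.3, 61.1 and 107 in knockouts, against 59.3, 66.8 and 68.7 in controls. Slc51b, which overlapped in CPM, had 30.8, 29.0 and 36.9 in knockouts, against 24.3, 21.2 and 25.1 in controls. Fabp2 itself was lowest in knockout replicate 1, at 2749, 6610 and 4767 CPM in knockouts, against 3989, 3829 and 4184 CPM in controls.

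Segment transcription factors gave a further view of position. Gata4, which in mice holds down ileal genes in the jejunum and is low in ileum, had 121, 115 and 107 CPM in knockouts 1 to 3, against 115, 118 and 126 CPM in controls 1 to 3, a log2 fold change of −0.06 (SE 0.10, edgeR adjusted p = 0.776). Cdx2, an intestinal identity factor, and Onecut2, a factor of the proximal gut, also overlapped between genotypes. Osr2 was lower in every knockout, at 39.5, 31.6 and 36.3 CPM in knockouts, against 47.1, 61.8 and 49.5 CPM in controls (edgeR adjusted p = 0.157). Pdx1, a duodenal factor, had 4.30, 23.4 and 26.99 CPM in knockouts 1 to 3, against 1.67, 0.458 and 2.13 CPM in controls 1 to 3, and was higher in every knockout (log2 fold change 3.68, SE 0.78, edgeR adjusted p = 0.120), as was Hoxb9 from much lower levels. Of the 10 factors tested, edgeR called none, with 5 higher and 2 lower at an unadjusted p under 0.05 (9.32% and 7.09% of all genes). DESeq2 called 1 in each direction, beside 3.35% of all genes higher and 1.87% lower. Without knockout replicate 1 edgeR called 3 higher and 1 lower, beside 10.0% and 7.44% of all genes.

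Genes of other gut positions were also examined. Of the duodenal list 3 genes were tested, and the iron reductase gene Cybrd1 had 5.21, 223 and 127 CPM in knockouts 1 to 3, against 1.72, 2.79 and 3.93 CPM in controls 1 to 3 (edgeR adjusted p = 0.127). The iron exporter gene Slc40a1 (5.97, 382 and 409 CPM in knockouts, against 3.04, 2.08 and 25.5 CPM in controls) was likewise highest in knockout replicates 2 and 3, and the iron importer gene Slc11a2 was highest in the same 2 libraries. Of 6 colon genes none was called, and the mucin glycosylation gene B3gnt7 was higher in every knockout. All 5 proximal hormone genes had a positive log2 fold change (4 without composition scaling), with Gip, Sct and Ghrl higher in every knockout, and so had all 3 distal ones, with Nts at 47.2, 60.4 and 57.8 CPM in knockouts, against 36.9, 32.5 and 26.2 CPM in controls (edgeR adjusted p = 0.117). Over all genes 50.7% had a positive log2 fold change (5656 of 15068 genes without composition scaling). Pyy and Gcg, both more abundant distally, overlapped. By edgeR none of these 17 genes was called, and 9 were higher at an unadjusted p under 0.05, beside 9.32% of all genes. DESeq2 called 5 higher, beside 3.35% of all genes, and edgeR without knockout replicate 1 called 9 higher, beside 10.0%.

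The partners and regulators of FXR and of ileal bile acid genes had negative fold changes in nearly every case, and none passed the edgeR test. Of 20 genes tested, 19 had a negative log2 fold change, with a median of −0.19. Over all genes 7423 of 15068 had one, with a median of 0.01. Without composition scaling all 20 had one, with a median of −0.30, but so had 9412 of 15068 genes, with a median of −0.10. With the scaling, 9 of the 20 genes were lower in every knockout than in any control, beside 11.7% of all genes tested. By edgeR none was called, and 7 were lower at an unadjusted p under 0.05, beside 7.09% of all genes. DESeq2 called 4 lower, beside 1.87% of all genes. Without knockout replicate 1, edgeR called 7 lower, beside 7.44% of all genes. Nr5a2, the nuclear receptor LRH-1, had 20.2, 17.9 and 22.7 CPM in knockouts 1 to 3, against 30.8, 37.2 and 45.2 CPM in controls 1 to 3 (log2 fold change −0.89, SE 0.17, edgeR adjusted p = 0.113). Hnf4g, a nuclear receptor of enterocyte differentiation, had 372, 312 and 278 CPM in knockouts, against 443, 552 and 530 CPM in controls (log2 fold change −0.66, SE 0.16, edgeR adjusted p = 0.135). Malrd1, which encodes Diet1, a protein known in mice to raise Fgf15 output, had 321, 242 and 348 CPM in knockouts, against 450, 402 and 471 CPM in controls (log2 fold change −0.54, SE 0.16, edgeR adjusted p = 0.196).

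Rxra, the partner with which FXR binds DNA, had 143, 125 and 141 CPM in knockouts 1 to 3, against 144, 168 and 160 CPM in controls 1 to 3, so the genotypes were separated by less than 2 CPM at their nearest. The coactivator gene Ppargc1a (116, 65.9 and 62.0 CPM in knockouts, against 120, 157 and 140 CPM in controls) and the glucocorticoid receptor gene Nr3c1, a known inducer of Slc10a2 (195, 163 and 185 CPM in knockouts, against 226, 236 and 246 CPM in controls), were also lower in every knockout. So were the fatty acid receptor gene Ppara and the oxysterol receptor gene Nr1h3. Hnf4a, the most abundant of the list, had the sole positive fold change (log2 0.09, SE 0.12, edgeR adjusted p = 0.737), and Vdr overlapped. The membrane bile acid receptor gene Gpbar1 was at or below 0.174 CPM in every library and Rxrg had no counts.

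**Figure D4:**
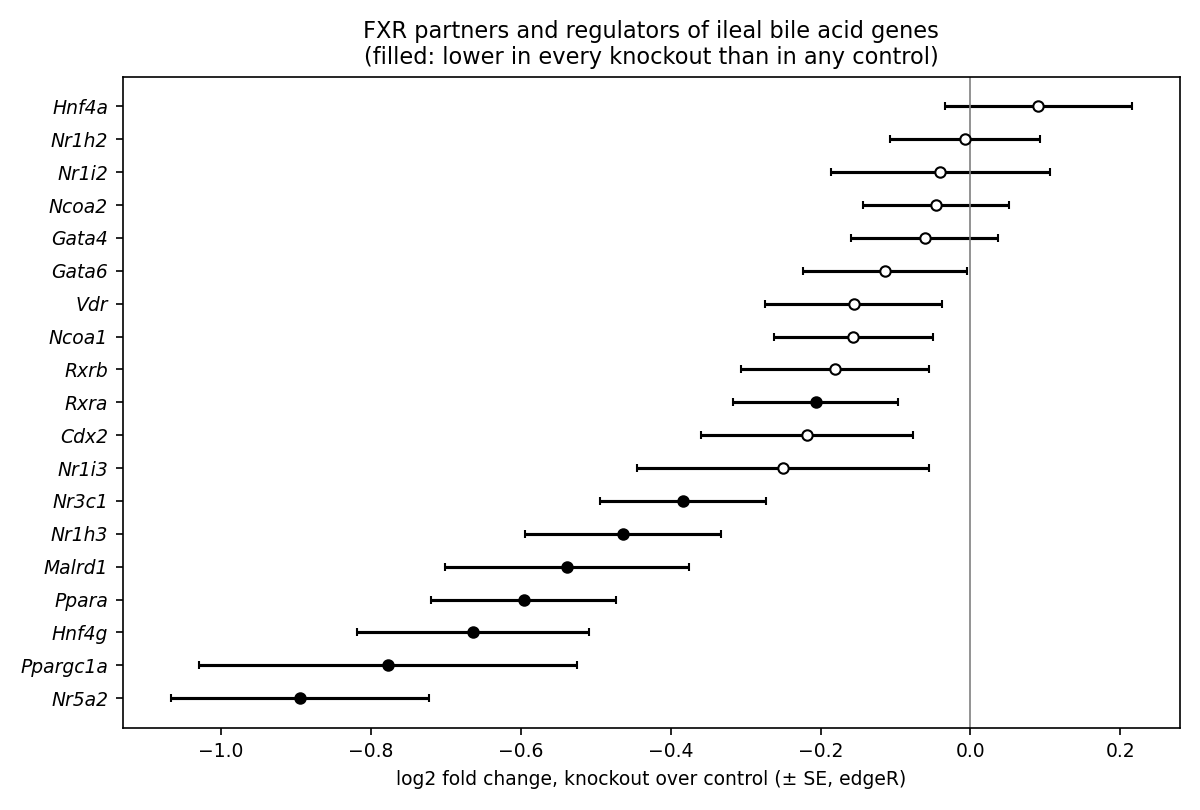
Log2 fold change, knockout over control, ± SE by edgeR for 19 of the 20 FXR partners and regulators of ileal bile acid genes, with filled points for those that were lower in every knockout than in any control. Nr5a2 lies lowest at −0.89 and Hnf4a is the sole gene above 0.

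Further genes that FXR has been reported to induce in intestine differed in their spread between knockouts. Akr1b7, an aldo-keto reductase gene, had 34.1, 198 and 152 CPM in knockouts 1 to 3, against 61.1, 57.5 and 61.7 CPM in controls 1 to 3. Car12, a carbonic anhydrase gene, had 3.64, 20.9 and 28.1 CPM in knockouts, against 6.91, 7.29 and 7.32 CPM in controls. Both were lowest in knockout replicate 1 and highest in the other knockouts, as Slc51a was. Nos2, inducible nitric oxide synthase and also an inflammatory gene, had 38.1, 818 and 487 CPM in knockouts, against 44.3, 15.8 and 15.1 CPM in controls (edgeR adjusted p = 0.153). The sterol exporter genes Abcg5 and Abcg8 overlapped between genotypes (log2 fold changes 0.01 and −0.32), and their highest knockout had 1.49 and 1.29 times the lowest, beside a median of 1.44 over all genes. Of the 9 genes tested 6 had a positive log2 fold change with a median of 0.12, beside 50.7% of all genes and a median of 0.01. Without composition scaling 4 had one, with a median of −0.02, beside 5656 of 15068 genes and a median of −0.10. By edgeR none was called, and 2 were higher at an unadjusted p under 0.05, beside 9.32% of all genes. DESeq2 called 1 higher, beside 3.35% of all genes, and edgeR without knockout replicate 1 called 3 higher, beside 10.0%.

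Other routes of bile acid transport and conversion differed by gene. Abcc3, which exports conjugated bile acids across the basolateral side, had 127, 328 and 390 CPM in knockouts 1 to 3, against 155, 104 and 131 CPM in controls 1 to 3. Knockout replicates 2 and 3 again lay above every control and replicate 1 among them (log2 fold change 1.12, SE 0.39, edgeR adjusted p = 0.235). Abcc4, an exporter of bile acids and prostaglandins, had 3.59, 12.5 and 7.69 CPM in knockouts, against 1.89, 1.92 and 1.72 CPM in controls, and was higher in every knockout (log2 fold change 2.11, SE 0.44, edgeR adjusted p = 0.118). Slco2a1, a prostaglandin carrier gene, was higher in every knockout (161, 413 and 276 CPM, against 147, 129 and 123 CPM in controls), and Baat, which conjugates bile acids, was lower at 1.11 to 1.70 CPM in knockouts, against 2.11 to 2.79 CPM in controls. Abcc2 and Abcg2 of the apical membrane and Cyp3a11, which hydroxylates bile acids, overlapped. The liver genes Cyp7a1 and Cyp8b1 of bile acid synthesis and Sult2a1 had no counts, and the hepatocyte uptake gene Slc10a1 had at most 0.0440 CPM. Of the 13 genes tested edgeR called none, with 3 higher and 2 lower at an unadjusted p under 0.05 (9.32% and 7.09% of all genes). DESeq2 called 2 higher, beside 3.35% of all genes, and edgeR without knockout replicate 1 called 4 higher, beside 10.0%.

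The genes most like the bile acid genes over the 6 libraries were named as a description. Among 9732 genes with a mean of at least 5 CPM, the 5 whose log2 CPM had the highest Pearson r with the mean level of the 7 included Uqcc1 (0.99), Fth1 (0.99), Ppid (0.98) and Gtf2e1 (0.97). Of these Fth1, the ferritin heavy chain gene, moved most, with 633, 941 and 1413 CPM in knockouts 1 to 3, against 662, 749 and 863 CPM in controls 1 to 3. Slc10a2 alone was like Plpp5, Ppa1, Oaf and Scd2 (0.98 to 0.99). Scd2, a stearoyl-CoA desaturase gene, had 173, 735 and 705 CPM in knockouts, against 214, 202 and 445 CPM in controls. Fabp6 alone was like Uqcc1, Wdr3, Aars2 and Gtf2e1 (0.98 to 0.99). With 6 libraries such values are easily reached, and 0.113% to 0.360% of the genes had an r of at least 0.95 with these patterns.

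Other cells and cell types were read from their marker lists. Epithelial markers summed to between 10961 and 16565 CPM in knockouts and between 11988 and 12462 CPM in controls. Paneth cell genes, known to be more abundant in ileum, summed to 765 to 1395 CPM in knockouts, against 1635 to 5826 CPM in controls. Their list level was −1.78, −1.24 and −2.34 in knockouts 1 to 3, against −0.71, 1.02 and −0.31 in controls 1 to 3. It was lower in every knockout, so genotype and position cannot be told apart in these genes. Of these 7 genes edgeR called none, with 4 lower at an unadjusted p under 0.05, beside 7.09% of all genes. DESeq2 called 2 lower, beside 1.87% of all genes, and edgeR without knockout replicate 1 called 3 lower, beside 7.44%. Tuft cell genes summed to 17.4 to 132 CPM in knockouts, against 134 to 174 CPM in controls, and goblet genes overlapped. T cell genes summed to 243 to 772 CPM in knockouts, against 113 to 211 CPM in controls, macrophage and dendritic genes to 31.9 to 40.2 CPM, against 14.4 to 15.8 CPM in controls, and endothelial genes to 10.5 to 15.4 CPM, against 3.67 to 6.28 CPM in controls.

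Lymphoid follicles, which are more frequent in ileum, were read from 8 follicle genes, which summed to 63.8, 13.2 and 16.4 CPM in knockouts 1 to 3, against 14.3 to 18.7 CPM in controls. Knockout replicate 1, the highest for the follicle genes, was the lowest library for Slc10a2 and Slc51a, and any link through position was not tested. M cell genes summed to 56.1 to 87.6 CPM in knockouts, against 56.9 to 61.9 CPM in controls. Plasma cell genes summed to 196 to 470 CPM in knockouts, against 37.6 to 183 CPM in controls, smooth muscle genes to 1.13 to 62.3 CPM, against 1.28 to 3.39 CPM in controls, and fibroblast genes to 2.88 to 44.9 CPM, against 1.98 to 13.2 CPM in controls. Neuronal and glial genes stayed under 1 CPM in sum, hepatocyte genes at 1.42 to 2.21 CPM, and acinar genes of the pancreas, which drains into the duodenum, summed to 5.62, 19.4 and 192 CPM in knockouts 1 to 3, against 3.73 to 5.13 CPM in controls. Their sum was highest in knockout replicate 3, which was also highest for 6 of the 7 bile acid genes, and any link was not tested. Villus tip genes overlapped as a list, with levels of 0.75, −0.18 and 0.19 in knockouts 1 to 3, and the purine enzyme gene Ada was higher in every knockout. Of these 8 genes edgeR called none with all libraries, and 2 were higher at an unadjusted p under 0.05, beside 9.32% of all genes. DESeq2 called 2 higher, beside 3.35% of all genes, and edgeR without knockout replicate 1 called 2 higher, beside 10.0%. The transcripts Gm26917 and Gm42418 together took 4.89%, 5.91% and 5.43% of all counts in knockouts 1 to 3, against 2.91%, 2.16% and 2.57% in controls 1 to 3. Vim, a mesenchymal and leukocyte gene, had 4.68, 5.62 and 3.92 counts per 1000 of the epithelial keratin gene Krt8 in knockouts, against 2.48, 2.74 and 2.75 in controls. Both measures were higher in every knockout, unlike the bile acid genes. The part of these transcripts, of these cell types, of sex and of the sampled position in the values of the bile acid genes was not tested.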

How the data were processed

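RNA from intestinal epithelium of 3 knockout and 3 control mice was sequenced. The deposited table holds raw counts per gene for 6 libraries, and per the submitters' processing notes the tools were bcl2fastq 2.17, FastQC, Trim Galore and STAR 2.5.0a with build mm10. How reads were counted, on which strand and with which annotation is not given in the sources used here. Of 54446 identifiers, 53229 matched GENCODE M21, from which strands, exon lengths and exon overlaps were taken. Gene positions are those of the deposited table. Genes were filtered with edgeR's filterByExpr (minimum count 10), scaled by TMM and tested by edgeR 4.0.16 (R 4.3.3) with the quasi-likelihood F test and Benjamini-Hochberg adjustment over all 15068 genes, at a threshold of 0.05. Fold changes are knockout over control. List levels used log2 CPM with a prior count of 2. The script was tested on simulated data. DESeq2 1.42.0, limma-voom (limma 3.58.1), other scalings, no filter, sex as a covariate, a replicate block and leaving out each library were tried. Sex by Xist and Ddx3y, the newer edgeR dispersion, and the scalings and left-out libraries of the list levels were chosen after seeing the data.

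The groups share replicate numbers. Deviations from the group means correlated by 0.117, 0.119 and 0.149 between same-numbered libraries, and by −0.143 to 0.00929 between others. The numbers may thus pair the libraries, from the data alone. The main fit did not use this pairing, and a fit with a replicate block was set beside it. Nothing in the labels names a shared litter or day. The lowest chi-square per gene between replicates was 23.8, so no library was counted as a duplicate. The p-values set the difference between genotypes against the spread between these samples within a genotype. The 7 members and the gene lists were chosen with earlier results of these data known. Named genes were the members and Prkci, and for each list the called genes, the 3 most abundant and up to 4 more whose genotypes did not overlap. Likeness genes were taken from the 5 with the highest r. Some genes of the lists are not reported here. Nr5a2, Ppara, Nr1h3, Akr1b7, Car12, Abcc3, Fabp2, Pcyt1a and the genes near or at 0 counts (Gpbar1, Rxrg, Slc10a1, Cyp7a1, Cyp8b1 and Sult2a1) fall outside that rule and were named after their values were seen.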

Additional observations from a re-analysis of the deposited data

How the results depend on the processing

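Of the 15 settings besides the main one, 14 had none of the 7 bile acid genes past the threshold. The other setting left out knockout replicate 1 and had 3 members past it. The 3 were Slc51a, Slc51b and Nr1h4. Fabp6, Slc51a, Slc51b and Nr1h4 kept a positive log2 fold change in all 15 settings. Without knockout replicate 3, Nr0b2 had −0.999 and Fgf15 −0.32, and with sex by Xist and Ddx3y as a covariate Slc10a2 had −0.11, and the cause was not tested. The other left-out libraries gave up to 1.98 for Nr0b2 (without knockout replicate 2) and up to 1.85 for Fgf15 (without control replicate 2). With the replicate block Fabp6 had a log2 fold change of 1.07 (edgeR adjusted p = 0.280), no member changed its call, and the count over all genes was 0, against 9 without the block. That count was 16 (11 higher and 5 lower) with library totals, 284 (196 and 88) without a filter, 849 (545 and 304) by DESeq2, 5 by limma-voom, 4 with the sex of the series text, and 0 to 2700 when 1 library was left out, with 2700 without knockout replicate 1. Over the companion genes, the count was 0 of 148 tested by edgeR, 10 of 159 without a filter and 24 of 150 by DESeq2. It was 0 to 46 of 148 when 1 library was left out, with 46 without knockout replicate 1. The knockout minus control list level was 0.55 for the bile acid genes, beside an SD of 1.03 between knockouts and 0.39 between controls. It was 0.03 without knockout replicate 3 and 1.06 without knockout replicate 1, so its size depends on both libraries. Knockout replicate 2 had a level of 0.51, against at most 0.25 in controls. For distal genes it was −0.08 (−0.20 to 0.15 when 1 library was left out), beside an SD of 0.38 between knockouts and 0.07 between controls, and for proximal genes −0.06 (−0.13 to 0.03), so that neither kept its sign.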
